A study of Mus musculus with 12 samples.

Results

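Ageing of the normal mouse retina between 1 and 6 months was read from 6 of the 12 libraries of the series, the ones labelled wild type (WT). They came from whole retina of C57BL/6J mice, 3 libraries at 1 month and 3 at 6 months, and were chosen by genotype and age alone, so no measured value entered the choice. The other 6 libraries came from 5xFAD mice of the same ages (strain label Tg6799), an Alzheimer disease model with mutant human transgenes driven by the neuronal Thy1 promoter, and they serve here only as separate libraries in which the same ages can be compared. No allele or treatment is given for the WT mice beyond the strain. Polyadenylated RNA was sequenced from an unstranded preparation, and the values are expected counts per gene and per transcript. Whether the libraries came from different animals is not stated in the labels, and neither is the sex, so p-values measure the spread between samples, which may be technical.

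The retina of a mouse is already wired and responds to light at 1 month, and the interval to 6 months covers young adulthood rather than old age. Rods make up most of its cells, with cones beside them, bipolar, horizontal and amacrine cells in the inner nuclear layer, and ganglion cells that send axons to the brain. Müller glia span all layers, take up glutamate and carry potassium and water away from active neurons, and photoreceptors rely on a heavy flow of energy and on daily renewal of their outer segments.

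Library totals ran from 11.3 to 11.7 M counts at 1 month and from 14.7 to 19.6 M at 6 months, so the older libraries were the deeper ones. Between 17491 and 19284 genes had a count at 1 month and between 20000 and 21019 at 6 months. Ribosomal RNA took 0.0920 to 0.325% of counts at 1 month and 0.0280 to 0.0612% at 6 months, and pseudogenes took 2.24 to 2.97% and 1.15 to 1.38%. The mean transcript length, weighted by counts, was 3788, 3579 and 3790 nt at 1 month against 4013, 4019 and 3700 nt at 6 months, so 6-month replicate 3 lay within the 1-month range. Rod genes dominated every library, and lens, muscle and cornea genes were near 0 (summed levels of 23.6 to 32.3 and 3.11 to 11.8 CPM, counts scaled to the library total). Y-linked Ddx3y lay between 48.6 and 63.9 CPM and Xist at or below 0.671 CPM in all 6 libraries. On the first principal component of expression (23.2% of the variance) the WT libraries at 6 months lay on the same side of 0 as the 5xFAD libraries at 1 month (5.87 to 25.8 and 39.8 to 49.2), and the WT libraries at 1 month on the same side as the 5xFAD libraries at 6 months (-40.3 to -11.3 and -61.1 to -12.6). So the leading difference among the libraries did not follow age across the genotypes. Whether the assignment or handling of the libraries has a part in this was not tested, and every age change below is between libraries labelled with these ages. All levels below are CPM after TMM scaling to library size, which does not correct for gene length, so they compare libraries for 1 gene and not genes with each other.

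Of 16233 genes with enough counts to test, 1705 (10.5%) differed between the ages at an adjusted p below 0.05 (edgeR quasi-likelihood test, Benjamini-Hochberg). They split into 976 higher at 6 months (6.01%) and 729 lower (4.49%), and 282 of them (1.74%) changed at least 2-fold. The libraries of the 2 ages did not overlap for 4987 genes (30.7%). With 1 WT library left out at a time, 604 genes (3.72%) were called in each of the 6 fits. Leaving out 1-month replicate 2 left 845 calls, and leaving out 6-month replicate 1 or 2 left 846 or 780. The genes described below passed with each library left out unless a value without one is given.

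The direction of change went with transcript length and base composition. Among the 5402 genes with the shortest transcripts (164 to 2061 nt) 104 were higher and 340 lower at 6 months, while among the 5402 with the longest (3578 to 123179 nt) 685 were higher and 166 lower. Genes with the lowest GC share split into 471 higher and 139 lower, and those with the highest into 170 and 341. After each library's trend on length and GC was removed, 834 genes were higher and 1144 lower, which turns the overall balance from 57.2% of calls higher to 42.2%. Overall counts by direction are therefore given with both values, and many gene lists also with the trend removed. Lists without a second split are given as tested only. Pseudogenes, which were lower at 6 months as a share of counts, were higher in 17 and lower in 52 of 488 tested.

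**Figure D1:**
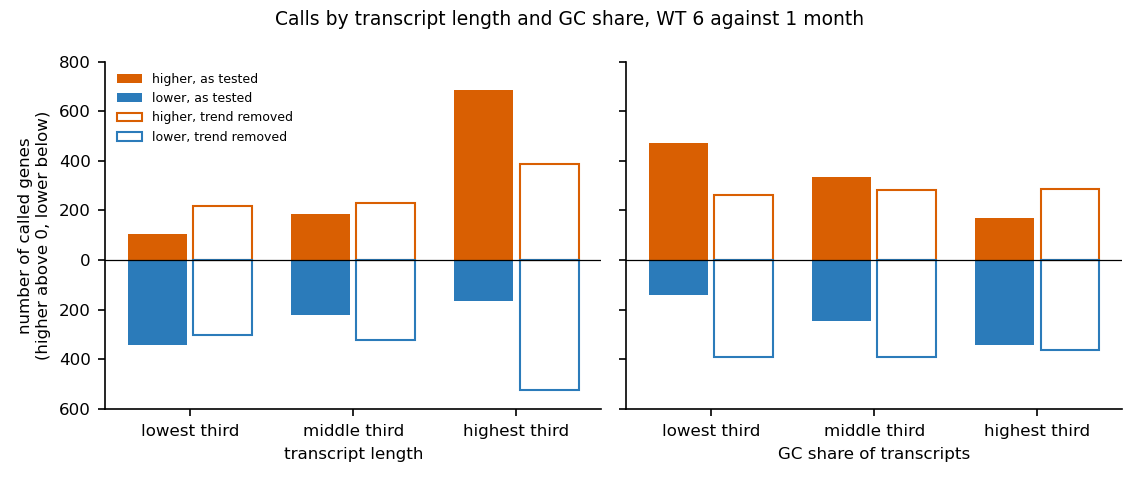
Number of genes called higher (above 0) or lower (below 0) at 6 months in WT retina, for genes grouped by transcript length (left) and GC share (right) into 3 groups of equal size (lowest, middle, highest); filled bars are counts as tested and open bars after removal of each library's trend. As tested, 685 of the longest genes were higher and 166 lower, and with the trend removed 386 were higher and 524 lower.

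The 5xFAD libraries share no sample with the WT ones, and the same ages were compared in them. In 5xFAD retina 1760 genes were higher (10.8%) and 2012 lower (12.4%) at 6 months. Both genotypes called 68 genes higher, which is 6.97% of the WT list and 3.86% of the 5xFAD list, and 39 lower (5.35% and 1.94%). The shares of the WT lists called in the same direction in 5xFAD, 6.97% and 5.35%, stand beside 10.8% and 12.4% of all tested genes called higher and lower there, so same-direction calls were no more common among the WT genes than among all genes. Genes called in opposite directions were more numerous: 562 were higher in WT and lower in 5xFAD (57.6% and 27.9% of the lists), and 196 the reverse (26.9% and 11.1%).

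**Figure D2:**
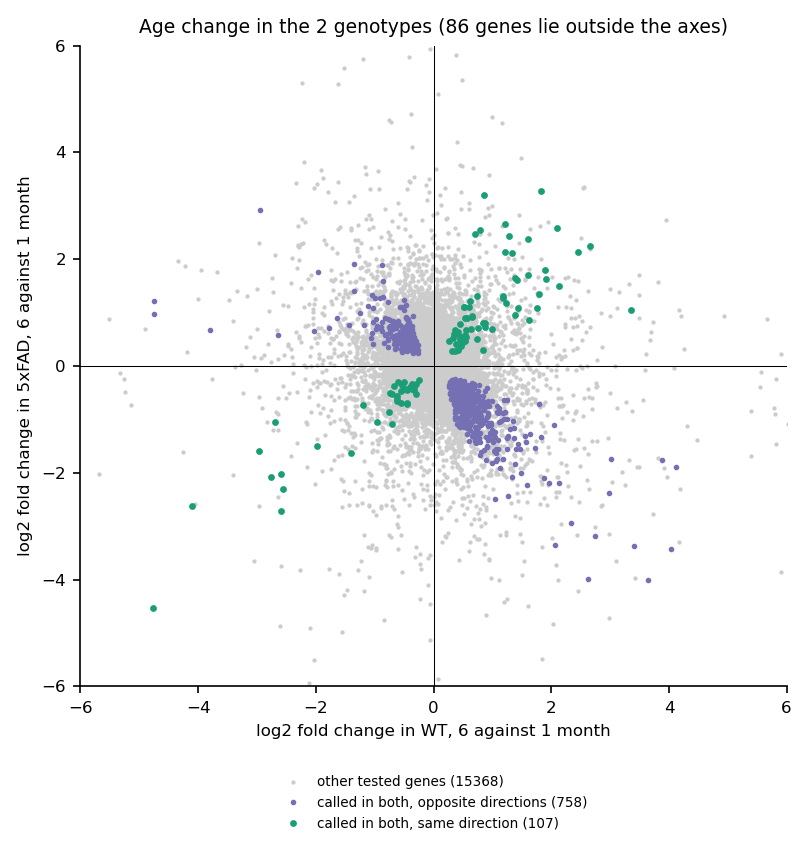
Log2 fold change from 1 to 6 months in WT (horizontal) against 5xFAD (vertical) for all tested genes; green points are the 107 genes called in both genotypes in the same direction, violet points the 758 called in opposite directions, and 86 genes lie outside the axes. The violet points lie mostly at the lower right, higher with age in WT and lower in 5xFAD.

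Among the genes that rose in both genotypes were several of metabolism and stress signalling. Fam107a (chr14:8296274-8318023, GRCm38), an actin-binding protein induced by stress and glucocorticoids, measured 7.55, 2.96 and 5.47 CPM at 1 month and 26.9, 16.1 and 27.6 at 6 months. Every 6-month library lay above every 1-month library, a log2 change of 2.13 ± 0.30 (SE; adjusted p = 0.000111), beside 1.49 in 5xFAD. Sgk1 (chr10:21882184-21999903), a kinase under glucocorticoid control that acts on ion transport, went from 208, 268 and 248 to 462, 440 and 390 CPM. That is a log2 change of 0.84 ± 0.10 (adjusted p = 1.36e-05) in WT and of 0.81 in 5xFAD, with no overlap between ages in either genotype.

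Isyna1 (chr8:70594373-70597290), which makes inositol phosphate from glucose phosphate, was at 13.6, 17.6 and 18.6 CPM at 1 month and 46.6, 41.4 and 44.9 at 6 months. The older libraries were all higher, by 1.42 ± 0.17 on the log2 scale (adjusted p = 1.73e-05), beside 1.61 in 5xFAD. Glb1l3, a relative of beta-galactosidase, rose by 1.60 ± 0.21 (adjusted p = 7.87e-05) from 15, 10.8 and 16.3 to 40.6, 45.2 and 42.3 CPM, and by 2.37 in 5xFAD. Hdc, the enzyme that makes histamine, went from 21.1, 18 and 8.55 to 42.5, 39.7 and 38.3 CPM, a log2 change of 1.34 (adjusted p = 0.000876) beside 2.12 in 5xFAD. Folh1, which cleaves N-acetylaspartylglutamate, changed by 1.18 (adjusted p = 0.0018) beside 1.31, and Hif3a, a hypoxia-inducible factor, by 1.39 (adjusted p = 0.00359) beside 0.96. These genes were all chosen after their values were seen, since they passed in both genotypes.

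The rule for the largest changes also named genes that rose in both genotypes. Aass, the first enzyme of lysine breakdown, went from 1.18, 0.808 and 0.77 to 4.58, 3.36 and 4.01 CPM (log2 change 2.10, adjusted p = 0.00502; 2.58 in 5xFAD). Tnfrsf12a, the receptor for the cytokine TWEAK, went from 1.18, 2.42 and 1.62 to 5.99, 5.85 and 5.86 CPM (1.76, adjusted p = 0.00535; 1.09 in 5xFAD). Gsc2, a homeobox gene, changed by 2.46, Rimbp3 by 1.91, Shisal2b by 1.90 and Alpk2, an alpha-kinase, by 1.79 (adjusted p from 0.000913 to 0.00599), beside 2.13, 1.63, 1.80 and 1.35 in 5xFAD. Tmem116 changed by 2.66 beside 2.24, but 27.8% of its sequence is shared with other genes, counted as the 50-base windows of its transcripts that also occur in another gene.

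Cd59a (chr2:104095801-104115354), which shields cells from complement lysis, rose in every 6-month library, from 26.6, 24.6 and 32.2 to 52.4, 53.2 and 59.9 CPM. Its log2 change of 0.99 ± 0.13 (adjusted p = 6.32e-05) stands beside 0.70 in 5xFAD. Lima1, an actin cross-linker, was higher by 0.74 (adjusted p = 0.000167) and by 0.51 in 5xFAD. None of the 16 genes described so far as higher in both genotypes, from Fam107a to Lima1, had a called difference between the genotypes in its age change. They were described for their rise in both genotypes, which makes a called difference less likely. Of all 68 genes called higher in both, 59 had none. Among all 976 genes higher in WT, 82.4% had one. Guca1a, Acsl3 and mt-Co3, which are described below, rose in both genotypes but with a called difference.

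Genes that fell in both genotypes included Marcksl1 (chr4:129513581-129515985), a membrane-to-actin linker of growing neurons. It measured 34.2, 46.4 and 35 CPM at 1 month and 16.9, 15.8 and 17.8 at 6 months, a fall to a similar level in all 3 older libraries (log2 change -1.19 ± 0.17, adjusted p = 0.000137; -0.73 in 5xFAD). Doc2b, a calcium sensor for transmitter release, went from 159, 175 and 161 to 99.6, 99.7 and 113 CPM (-0.67 ± 0.09, adjusted p = 9.26e-05; -0.37 in 5xFAD). Smpd1, the acid sphingomyelinase of lysosomes, fell by 0.61 on the log2 scale (adjusted p = 0.000574), from 116, 138 and 133 to 77.5, 81 and 94.5 CPM, beside -0.30 in 5xFAD. Serinc5, a lipid scramblase, changed by -0.76 (adjusted p = 0.00197) beside -0.87, and Ccdc187 by -1.98 (adjusted p = 0.00303) beside -1.51. Except for Marcksl1 and Ccdc187, these were chosen after their values were seen.

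Haemoglobin transcripts, which mark red cells left in the tissue, fell as well. The 6 tested blood genes had a median log2 change of -2.68, against -0.01 over all tested genes, and 4 were called lower. Their summed level was 157, 68 and 113 CPM at 1 month and 12.6, 16.9 and 17 CPM at 6 months. Hba-a2 went from 36.9, 16.2 and 30.3 to 4.37, 3.46 and 4.49 CPM (-2.76 ± 0.31, adjusted p = 1.86e-05; -2.08 in 5xFAD), and Hbb-bs, Hba-a1 and Hbb-bt by -2.97, -2.59 and -4.11. The globin genes share 58.6 to 89.9% of their windows with another gene, so the split between them is uncertain. White-cell markers S100a8, S100a9, Ngp, Cd3e and Ms4a1 had 0 counts in all 6 libraries.

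**Figure D3:**
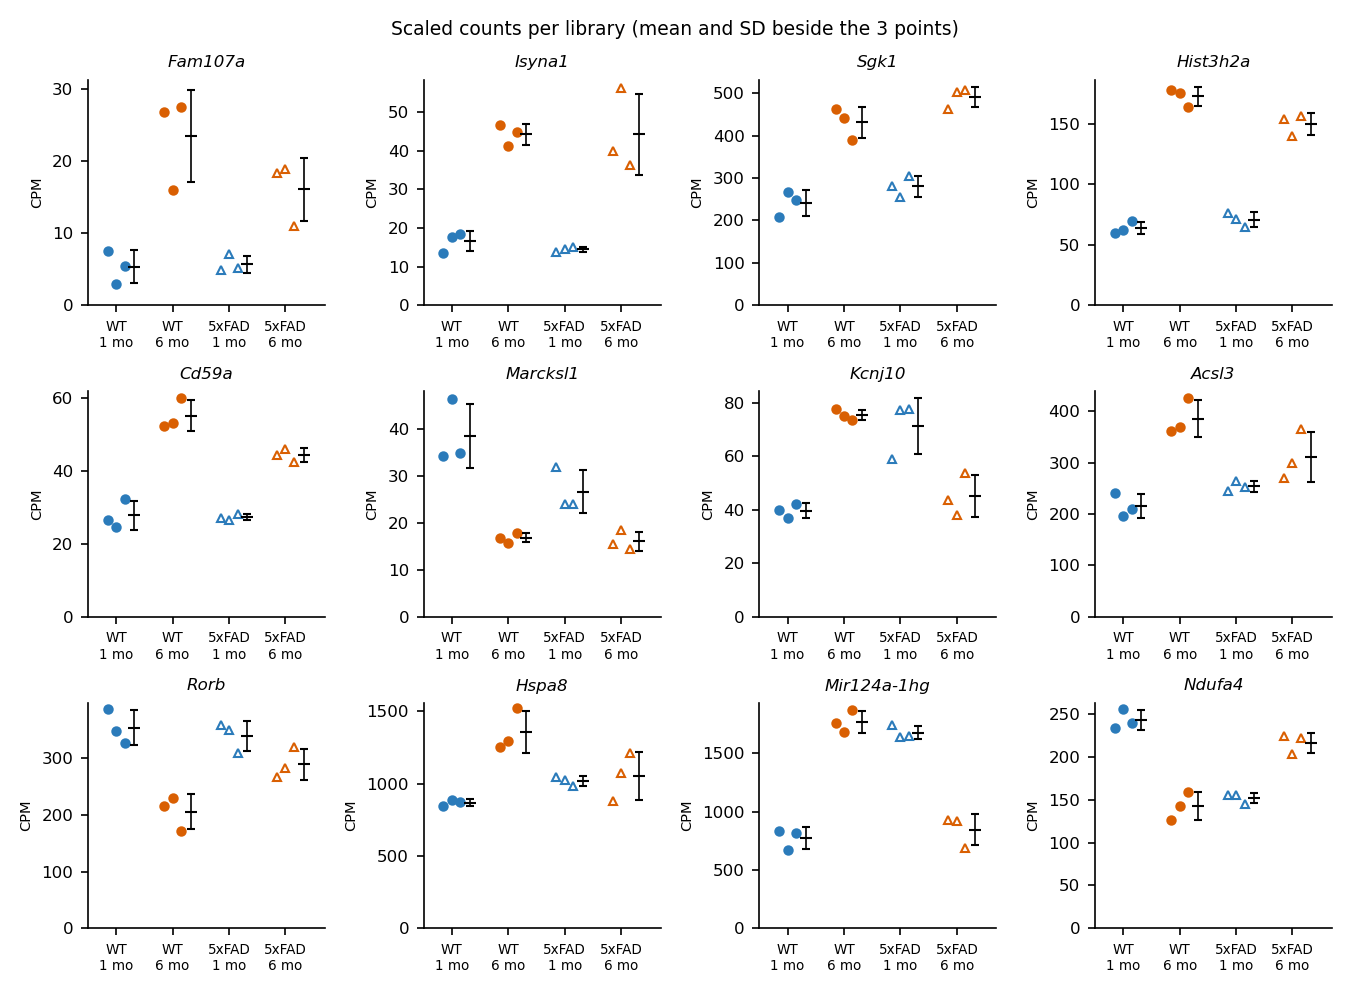
CPM in each library for 12 genes (circles WT, open triangles 5xFAD, blue 1 month, orange 6 months), with the mean and SD over the 3 libraries of a group drawn beside the points. Fam107a, Isyna1, Sgk1, Hist3h2a and Cd59a were higher and Marcksl1 lower at 6 months in both genotypes, while Kcnj10, Mir124a-1hg and Ndufa4 moved in opposite directions.

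Rod genes split into both directions. Of 36 tested genes of rod phototransduction and the outer segment, 8 were higher and 4 lower at 6 months. Over all tested genes 6.01% were higher and 4.49% lower. The median log2 change of the rod list was -0.02. In bulk RNA fewer cells of a type and less RNA per cell cannot be told apart, here and below. After removal of the length and GC trend 9 of the rod genes were higher and 7 lower. The higher count fell to 5 without 1-month replicate 2, and the lower count to 1 without 1-month replicate 2 or 6-month replicate 1 or 2, to 2 without 1-month replicate 3, and grew to 7 without 6-month replicate 3.

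Several genes of the cyclic GMP machinery were higher. Gucy2e and Gucy2f, the retinal guanylate cyclases that restore cyclic GMP after light, went from 613, 592 and 611 to 827, 866 and 725 CPM and from 193, 158 and 201 to 312, 314 and 217 CPM. Their log2 changes were 0.41 ± 0.08 (adjusted p = 0.00205) and 0.61 ± 0.13 (adjusted p = 0.00529), and in both genes 6-month replicate 3 was the lowest of the older libraries.

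Guca1a, the calcium-sensing activator of these cyclases, was at 523, 647 and 579 CPM and then at 714, 728 and 1064 (0.52 ± 0.12, adjusted p = 0.00738), with 6-month replicate 3 the highest. Pde6a, a catalytic subunit of the rod phosphodiesterase that breaks cyclic GMP down, rose from 2062, 1886 and 2126 to 2632, 2655 and 2506 CPM (0.36 ± 0.08, adjusted p = 0.00417). Rgs9, which speeds the shut-off of transducin, showed one library apart: 340, 256 and 383 CPM at 1 month against 742, 720 and 388 at 6 months. Its change of 0.92 ± 0.23 (adjusted p = 0.0304) did not pass without 1-month replicate 1 (0.0675) or 2 (0.101), or without 6-month replicate 1 (0.0996) or 2 (0.116). Guca1a also rose in 5xFAD (1.11), while Gucy2e, Gucy2f, Pde6a and Rgs9 fell there (-0.54, -1.21, -0.24 and -0.87).

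Among 15 photoreceptor transcription factors 2 were higher and 3 lower, beside 6.01% and 4.49% of all tested genes. The list's median was 0.01. The lower count was 1 without 1-month replicate 2 or 6-month replicate 1. The higher count was 0 without 1-month replicate 2 and 1 without 1-month replicate 3 or 6-month replicate 1 or 2. With the length and GC trend removed 1 of the 15 was higher and 5 were lower. Rorb (chr19:18930605-19111196), a nuclear receptor needed for rods and horizontal cells to form, fell from 386, 348 and 326 to 216, 230 and 172 CPM. That is -0.78 ± 0.11 (adjusted p = 7.23e-05), and -1.10 after removal of the length and GC trend, with no overlap of the ages. Nrl, the master regulator of rod fate, fell by 0.35 on the log2 scale from 1721, 1938 and 1714 to 1333, 1337 and 1547 CPM (adjusted p = 0.0101). It did not pass without 1-month replicate 2 (0.0685) or without 6-month replicate 1 (0.104) or 2 (0.117). Nr2e3, which acts with Nrl to silence cone genes, was higher by 0.35 (adjusted p = 0.0131), from 561, 493 and 518 to 636, 627 and 739 CPM, but not without 1-month replicate 2 (adjusted p = 0.0718).

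Cone genes were described by 15 tested members, 2 higher and 2 lower, with a median of -0.24. No library-by-library removal kept any of these 4 calls throughout. The lower count was 0 without 6-month replicate 1 or 2, as was the higher count without these or 1-month replicate 2. With the length and GC trend removed 1 cone gene was higher and 5 were lower. The shares over all tested genes were 6.01% higher and 4.49% lower as tested. Opn1mw, the medium-wavelength cone opsin, was at 150, 140 and 124 CPM and then at 80.5, 90.4 and 114 (-0.54 ± 0.13, adjusted p = 0.00738), with no call without 6-month replicate 1 (0.0871) or 2 (0.0603). Gnat2, the cone transducin, changed by -0.36 (adjusted p = 0.0289) and lost its call without 1-month replicate 1 (0.261) or 6-month replicate 1 (0.158) or 2 (0.205).

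In the inner retina bipolar and amacrine markers were called in both directions, and horizontal and ganglion cell markers only as higher. Calls numbered 2 higher and 2 lower of 23 bipolar genes, 3 and 1 of 20 amacrine genes, 1 and 0 of 9 horizontal genes and 2 and 0 of 22 ganglion cell genes, with medians of -0.02, 0.14, 0.21 and -0.05, beside 6.01% higher and 4.49% lower of all tested genes. Isl1, a homeobox factor of ON bipolar, amacrine and ganglion cells, fell from 83.9, 92.3 and 95 to 73.4, 62.1 and 55.4 CPM (-0.51 ± 0.11, adjusted p = 0.00437). Tfap2b, an amacrine cell factor, rose from 146, 110 and 127 to 186, 191 and 182 CPM (0.54 ± 0.10, adjusted p = 0.00169). Prox1, which marks horizontal and AII amacrine cells, rose from 126, 119 and 153 to 218, 204 and 164 CPM (0.56 ± 0.12, adjusted p = 0.00449). The sums over the bipolar list (2557 to 2883 CPM at 1 month, 2627 to 2916 at 6 months) overlapped between ages. So did those over the ganglion cell list (1460 to 1613 and 1392 to 1552). Calls held with each library left out for 1 lower bipolar, 2 higher amacrine and 1 higher horizontal gene, and for no ganglion cell gene. With the length and GC trend removed bipolar genes had 2 higher and 3 lower and amacrine genes 3 and 1. Horizontal genes then had 1 and 2 and ganglion cell genes 1 and 1. 

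Genes for synapses, transmitter receptors and ion channels gave mostly higher calls, beside 6.01% higher and 4.49% lower of all tested genes. Of 41 synaptic genes 10 were higher and 1 lower, of 45 glutamate and GABA receptor genes 7 and 1, and of 57 potassium, sodium, calcium and HCN channel genes 10 and 1, with medians of 0.11, 0.26 and 0.22. After removal of the length and GC trend the splits became 7 and 2, 4 and 2, and 7 and 3. The same removal gave 834 higher and 1144 lower of 16205 tested genes. Without 1-month replicate 2 the higher counts were 4, 3 and 6, without 6-month replicate 1 they were 6, 4 and 6, and without 6-month replicate 2 they were 4, 3 and 6.

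At the synapse, Shank1, a postsynaptic scaffold, went from 70.4, 76.8 and 95.4 to 135, 129 and 129 CPM (0.70 ± 0.12, adjusted p = 0.000629). Bsn, the active-zone protein that anchors photoreceptor ribbons, went from 123, 114 and 140 to 179, 198 and 152 CPM (0.49 ± 0.11, adjusted p = 0.00636). Homer1 and Nrxn3, a scaffold and a presynaptic adhesion molecule, rose by 0.78 and 0.59 (adjusted p = 0.00208 and 0.0028). The 6-month libraries were higher without overlap for all 4 genes, where 30.7% of all tested genes had no overlap in either direction.

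Receptor and channel genes with calls included several of the excitatory synapse and of the potassium current. Grin2b, an NMDA receptor subunit, went from 12.5, 8.44 and 15 to 37.3, 35.3 and 17.8 CPM (1.33 ± 0.24, adjusted p = 0.00126), with 6-month replicate 3 closest to the young libraries. Gria2, the AMPA receptor subunit that limits calcium entry, rose by 0.66 ± 0.13 (adjusted p = 0.0028), from 192, 169 and 183 to 324, 316 and 217 CPM. Kcnh5 (chr12:74897220-75177332), a voltage-gated potassium channel, went from 5.29, 2.51 and 3.68 to 19, 21.6 and 10 CPM (2.14 ± 0.30, adjusted p = 9.06e-05). Kcna1, Kcna2 and Kcnma1, 2 further voltage-gated potassium channels and the calcium-activated BK channel, rose by 1.09, 0.69 and 0.64 (adjusted p = 0.00535, 0.00349 and 0.000446). All 7 of these receptor, channel and active-zone genes, Bsn included, fell with age in 5xFAD, from -0.60 for Gria2 to -2.20 for Kcnh5.

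Mir124a-1hg (chr14:64587331-64593961), the host transcript of a neuronal microRNA abundant in retina, had one of the most even changes. It measured 839, 669 and 821 CPM at 1 month and 1759, 1687 and 1873 at 6 months (1.19 ± 0.10, adjusted p = 1.16e-07), and changed by -0.99 in 5xFAD, from 1745, 1643 and 1647 to 929, 923 and 690 CPM. The WT libraries at 6 months and the 5xFAD libraries at 1 month were the high ones. It was chosen after its values were seen.

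Müller glia genes included some of the steadiest changes. Of 22 tested members 6 were higher and 1 lower, against 6.01% and 4.49% of all genes, and the higher count was 5 or 6 with any 1 library left out and 8 with the trend removed. The median was 0.03. The summed level went from 5215, 5417 and 5437 to 6136, 6016 and 6687 CPM.

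Kcnj10 (chr1:172341210-172374085), the Kir4.1 channel through which Müller cells pass potassium, went from 40, 36.8 and 42.2 to 77.5, 75.1 and 73.7 CPM. The 3 libraries of each age lay close together, and the log2 change was 0.93 ± 0.13 (adjusted p = 0.000124). Aqp4, the water channel that sits with it in the glial endfeet, rose from 89.1, 71.1 and 79.5 to 126, 123 and 127 CPM (0.65 ± 0.11, adjusted p = 0.000428). Acsl3 (chr1:78657825-78707743), which activates long-chain fatty acids for lipid storage, rose from 241, 196 and 209 to 361, 369 and 427 CPM (0.84 ± 0.11, adjusted p = 3.05e-05), and by 0.30 in 5xFAD.

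Abca8a, a lipid transporter, changed by 0.53 ± 0.08 (adjusted p = 0.000341) and Glul, the glutamine synthetase that detoxifies glutamate, by 0.29 ± 0.08 (adjusted p = 0.0152), from 1829, 1867 and 1957 to 2241, 2222 and 2474 CPM. Crym, a thyroid hormone binding protein, was the lower member, from 50.1, 55.6 and 63.8 to 22, 29.3 and 31.7 CPM (-1.03 ± 0.14, adjusted p = 9.06e-05). Kcnj10 fell in 5xFAD (-0.66), where Aqp4, Abca8a and Crym did not pass (-0.27, -0.23 and -0.31).

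Glial reactivity and complement lists lay higher at 6 months in sum, with few single calls. Of 19 glial reactivity genes 2 were higher and 15 lay above 0, with a median of 0.24, and the summed level went from 369, 363 and 389 to 470, 446 and 502 CPM. Of 12 complement genes 1 was higher, Cd59a described above, with a median of 0.24 and sums of 66.1, 55.9 and 76.2 and then 91.5, 89.4 and 106 CPM. In both lists the sums of the ages did not overlap, and they were not tested. Most of the rise in each sum came from 1 gene, Cp in the reactivity list and Cd59a in the complement list. Of the 2 called reactivity genes one was A2m, a protease inhibitor, which did not pass without 1-month replicate 2 (0.0847) or 3 (0.062) or 6-month replicate 1 (0.0632) or 3 (0.126). The other was Cp, the ferroxidase ceruloplasmin, which went from 86.9, 82.9 and 110 to 173, 160 and 172 CPM (0.85 ± 0.12, adjusted p = 0.000137). Gfap, which astrocytes carry and stressed Müller cells switch on, was at 11.9, 9.87 and 3.59 CPM and then at 2.56, 4.58 and 7.66, overlapping between ages (-0.77 ± 0.40, adjusted p = 0.249). None of the 17 homeostatic microglia genes, 13 disease-associated microglia genes, 25 interferon and antigen presentation genes or 9 astrocyte genes passed the test, with medians of 0.01, 0.03, 0.02 and 0.27. The homeostatic microglia sums were 72.2 to 80.4 CPM at 1 month and 72.9 to 82.4 at 6 months. Single members of that list were near 5 CPM, such as C1qb at 3.23 to 4.11 and 5.14 to 6.58 CPM. Modest changes in such low genes could be missed, and the smallest detectable change was not computed. Not all members of the other lists were low. Apoe, of the disease-associated list, had a mean of 409 CPM over the WT libraries and did not pass (0.42, adjusted p = 0.0700).

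Vessel and neighbouring tissue genes were also mostly without calls. Endothelial genes had a median of -0.43 with 1 of 20 higher and none lower, and the tight-junction gene Cldn5 measured 8.14, 4.67 and 6.5 against 2.89, 2.19 and 3.23 CPM without passing (-1.22 ± 0.43, adjusted p = 0.0748). Pericyte and smooth muscle genes had a median of -0.58 and 11 of 12 below 0, with no call. The 14 pigment epithelium genes and 6 myelin genes had no call either (medians -0.20 and -0.44), and Mog, Opalin and Olig2 had 0 counts. The summed endothelial level was 434, 403 and 386 CPM at 1 month and 452, 411 and 444 CPM at 6 months. The pericyte and smooth muscle sums were 775, 836 and 765 CPM and then 703, 688 and 787 CPM, overlapping between ages. So the medians of these vessel lists lay below 0 while the endothelial sum did not fall. Haemoglobin transcripts fell over the same ages, and their part in the vessel values was not tested.

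Several genes of growing neurons were lower at 6 months. Of 31 tested members of the immature neuron and axon growth list 9 were lower and none higher, with a median of -0.22, and with the trend removed 9 were lower and 2 higher. Leaving out 6-month replicate 1 or 2 left 3 lower. Over all tested genes 4.49% were lower and 6.01% higher. Stmn4, a tubulin-binding stathmin of neurites, went from 24.2, 26.6 and 23.8 to 14.2, 13.9 and 11.7 CPM (-0.90 ± 0.18, adjusted p = 0.00234). Tmsb4x, which sequesters actin monomers, went from 133, 120 and 107 to 77.4, 72.5 and 82.4 CPM (-0.63 ± 0.10, adjusted p = 0.000446). With Marcksl1, described above, these are 3 members whose ages did not overlap, as was so for 30.7% of all tested genes.

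Other developmental genes moved with them in part. Hmgb3, a chromatin protein of progenitor cells, went from 24.8, 27.5 and 29.1 to 11.5, 11.9 and 12.8 CPM (-1.17 ± 0.17, adjusted p = 0.000163), with 26.3% of its windows shared. Ndn, an imprinted growth suppressor, fell by 0.61 on the log2 scale (adjusted p = 0.0018), while the imprinted genes Ube3a and Grb10 and the growth factor receptor Igf1r rose by 0.65, 0.45 and 0.53 (adjusted p = 0.000574, 0.00321 and 0.000579). The whole imprinted and growth list had 4 higher and 4 lower of 26, beside 6.01% and 4.49% of all tested genes. Its lower count was 1 without 1-month replicate 2 or 6-month replicate 1 or 2 and 2 without 1-month replicate 3. With the length and GC trend removed the list had 5 higher and 6 lower. In the matrix, Agrn and Col6a1, a basement membrane proteoglycan and a collagen VI chain, went from 204, 208 and 217 to 150, 136 and 127 CPM and from 194, 200 and 205 to 148, 142 and 128 CPM. Both fell without overlap (-0.60 ± 0.12, adjusted p = 0.0018, and -0.52 ± 0.09, adjusted p = 0.000859).

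Cell cycle genes showed no common direction, with 1 higher and 2 lower of 23, beside 6.01% and 4.49% of all tested genes. The list's median was 0.06. Ccnd1, the cyclin D of the early cell cycle, was the higher one, from 14.9, 13.1 and 13.9 to 33.2, 27.9 and 32.4 CPM (1.16 ± 0.17, adjusted p = 0.000159). Senescence, p53 and DNA damage genes had 1 higher and 2 lower of 20.

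Among histone genes more were higher than lower. Of 24 tested replication-dependent histone genes, a list chosen after values were seen, 8 were higher and 2 lower. The shares over all tested genes were 6.01% and 4.49%. The histone list had a median of 1.10. The higher count was 8 or 9 with any library left out. Such transcripts mostly lack a poly(A) tail, so their level in poly(A)-selected libraries also depends on the tailed fraction. Hist3h2a (chr11:58954685-58956830), an H2A gene, had the smallest adjusted p of the genes named here, with 59.8, 62.5 and 69.8 CPM at 1 month and 178, 175 and 164 at 6 months (1.43 ± 0.10, adjusted p = 2.56e-09; 1.08 in 5xFAD). It shares its start with Trim17, which was higher too (0.87, adjusted p = 0.00143; 0.81 in 5xFAD), and reads from the overlap cannot be told apart. Hist1h2be went from 11.3, 10.2 and 4.87 to 25.6, 22.7 and 27.5 CPM (1.52 ± 0.26, adjusted p = 0.000819), and Hist2h4 from 0.839, 0.449 and 2.22 to 6.73, 9.97 and 6.1 CPM (2.69 ± 0.55, adjusted p = 0.0029). 

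Chaperone calls all went one way. Of 26 tested heat shock and chaperone genes 10 were higher and none lower, 23 lay above 0 and the median was 0.28, with 11 higher after removal of the trend. The higher count was 6 without 1-month replicate 2. Over all tested genes 6.01% were higher and 4.49% lower. Chaperones fold new proteins and refold damaged ones, and 2 transcription programmes raise them, one through heat shock factors in the cytosol and one through the unfolded protein response of the endoplasmic reticulum (ER). The promoters of 3 called ER chaperones are shown because each holds the ER stress response element, whose letters are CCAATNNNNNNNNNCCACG on either strand, in the 250 bases before the RefSeq start site (GRCm38.p6). Capitals mark the match on the gene's strand or its reverse complement. The windows are chr2:34771840-34772089 on the plus strand for Hspa5, chr10:86705445-86705694 on the minus strand for Hsp90b1 and chr8:84846932-84847181 on the minus strand for Calr.
Hspa5: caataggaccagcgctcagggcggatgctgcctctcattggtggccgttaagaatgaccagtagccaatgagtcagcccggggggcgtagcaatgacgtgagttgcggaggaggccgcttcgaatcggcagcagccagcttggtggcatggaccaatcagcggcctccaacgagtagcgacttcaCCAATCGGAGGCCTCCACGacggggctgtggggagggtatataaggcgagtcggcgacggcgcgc
Hsp90b1: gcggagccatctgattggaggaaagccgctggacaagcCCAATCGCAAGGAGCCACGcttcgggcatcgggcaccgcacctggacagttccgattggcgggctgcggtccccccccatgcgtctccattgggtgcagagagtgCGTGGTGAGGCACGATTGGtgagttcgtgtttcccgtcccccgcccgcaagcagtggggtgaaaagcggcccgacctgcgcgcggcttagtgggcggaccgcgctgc
Calr: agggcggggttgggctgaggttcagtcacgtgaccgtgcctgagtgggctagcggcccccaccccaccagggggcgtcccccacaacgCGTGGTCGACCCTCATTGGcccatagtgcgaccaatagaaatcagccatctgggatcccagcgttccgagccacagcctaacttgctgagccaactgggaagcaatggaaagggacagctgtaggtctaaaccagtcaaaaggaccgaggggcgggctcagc
The first match begins 65 bases before the start in Hspa5, 212 in Hsp90b1, which has a second one, and 162 in Calr. This element occurs in 0.113% of 32851 promoter windows of that length, and in 0.130% of the 27025 genes that have one. Of 20 list members with a window 5 hold it, Canx and Pdia6 besides these, and 3 of the 8 called members with a window. The heat shock element, GAANNTTCNNGAA, was found in 2 (Hspd1 and Hspe1), neither called, against 0.514% of genes. The windows of Hspd1 and Hspe1 overlap on opposite strands and hold the same stretch, so these are not separate sites. These are letter matches, which describe the windows and say nothing about binding.

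In the ER, Hspa5, the master chaperone BiP, went from 180, 183 and 211 to 252, 242 and 317 CPM (0.50 ± 0.10, adjusted p = 0.00262). Hsp90b1, the ER member of the Hsp90 family, went from 363, 332 and 374 to 499, 501 and 570 CPM (0.55 ± 0.10, adjusted p = 0.00148), and Calr, the lectin chaperone calreticulin, from 250, 255 and 256 to 313, 311 and 396 CPM (0.42 ± 0.10, adjusted p = 0.0107). In all 3 the 6-month libraries were higher without overlap, and 6-month replicate 3 was the highest. The ages did not overlap for 30.7% of all tested genes.

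In the cytosol, Hspa8 (chr9:40800984-40810087), the constitutive Hsc70, went from 844, 886 and 875 to 1250, 1292 and 1523 CPM (0.64 ± 0.10, adjusted p = 0.000251), with 35.7% of its windows shared with other genes. Hsph1, its nucleotide exchange factor, went from 52.2, 58.3 and 51.3 to 93.7, 94.5 and 111 CPM (0.89 ± 0.16, adjusted p = 0.00135). Hspa1a, the heat-inducible Hsp70, went from 42, 52.6 and 43 to 84.7, 81 and 74.2 CPM (0.80 ± 0.12, adjusted p = 0.000137), but shares 67.3% of its windows, so its split from near-identical copies is uncertain. None of these 6 passed in 5xFAD, where their changes ran from -0.20 to 0.23.

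More clock genes were lower than higher, while over all tested genes 4.49% were lower and 6.01% higher. Of 20 tested members of the circadian list 6 were lower and 2 higher, with a median of -0.21 (6 lower and none higher with the trend removed). The lower count was 2 without 1-month replicate 2 and 3 without 6-month replicate 1 or 3, and the higher count 4 without 1-month replicate 1 and 0 without 1-month replicate 2 or 6-month replicate 1 or 2. The labels give no time of day for the dissections, so its part in these values was not tested. Clock output is driven through E-boxes, bound by CLOCK and BMAL1, and D-boxes, bound by TEF and its relatives. The promoters of Tef (the first of its 2 RefSeq start sites, chr15:81802423-81802672, plus strand) and Per3 (chr4:151044666-151044915, minus strand) are shown because both genes were lower and hold one of these motifs. Capitals mark the E-box CACGTG in Tef and the D-box TTATGTAA in Per3.
Tef: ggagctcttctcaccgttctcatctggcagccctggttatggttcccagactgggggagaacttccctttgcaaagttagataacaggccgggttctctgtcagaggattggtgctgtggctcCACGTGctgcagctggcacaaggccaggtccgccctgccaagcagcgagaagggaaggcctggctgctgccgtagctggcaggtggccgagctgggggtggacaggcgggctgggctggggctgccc
Per3: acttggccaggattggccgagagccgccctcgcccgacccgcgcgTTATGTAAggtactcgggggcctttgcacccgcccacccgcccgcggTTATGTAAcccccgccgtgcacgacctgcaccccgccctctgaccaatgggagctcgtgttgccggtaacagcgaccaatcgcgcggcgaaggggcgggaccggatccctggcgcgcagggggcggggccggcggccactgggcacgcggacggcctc
The E-box of Tef begins 127 bases before the start and the first D-box of Per3 205 bases before it. An E-box was found in 5 of 17 list members with a window, against 6.86% of all genes with one, and a D-box in 1, against 0.977%. Bhlhe41 and Ciart, a repressor of CLOCK and BMAL1 and a repressor of clock transcription, are the other called members with an E-box, and were chosen after their values were seen. They were lower by 0.39 and 0.86 on the log2 scale (log2 changes -0.39 and -0.86, adjusted p = 0.0363 and 0.0456), but Ciart did not pass with any 1 WT library left out (0.0739 to 0.187) and Bhlhe41 only without 1-month replicate 1 (0.0303) or 6-month replicate 2 (0.0489). Cry1 and Per1 hold an E-box and were not called. Tef, a leucine zipper activator of clock output, went from 320, 307 and 351 to 223, 237 and 230 CPM (-0.50 ± 0.09, adjusted p = 0.000988), without overlap. Per3, a period gene, went from 169, 179 and 160 to 135, 137 and 115 CPM (-0.39 ± 0.10, adjusted p = 0.013), and did not pass without 1-month replicate 2 (0.0714) or 6-month replicate 3 (0.0518). Rorb, described above, is a member of this list too.

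Genes of energy metabolism and of the ribosome gave mostly lower calls as tested, beside 4.49% lower and 6.01% higher of all tested genes. Of 76 nuclear genes of oxidative phosphorylation 17 were lower and 1 higher, with a median of -0.27, and of 79 cytosolic ribosomal protein genes 14 were lower and 4 higher, with a median of -0.20. Both lists consist mostly of short genes, and after removal of the length and GC trend the first had 10 lower and 6 higher (median -0.05) and the second turned to 7 lower and 16 higher (median 0.04). The lower counts also hung on single libraries. For oxidative phosphorylation they were 11, 9 and 10 without 1-month replicate 1, 2 or 3 and 6, 7 and 29 without 6-month replicate 1, 2 or 3. For ribosomal proteins they were 3 without 1-month replicate 2, 2 without 6-month replicate 1 or 2 and 38 without 6-month replicate 3, and the higher count was 2 without the last.

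Single members held in all these fits. Ndufa4 (chr6:11900292-11907497), a subunit of the respiratory chain, went from 233, 256 and 240 to 127, 142 and 159 CPM (-0.77 ± 0.09, adjusted p = 1.86e-05; -0.50 with the trend removed). Atp5g3, a c-ring subunit of ATP synthase, went from 197, 218 and 199 to 109, 119 and 142 CPM (-0.73 ± 0.10, adjusted p = 6.54e-05; -0.53 with the trend removed). Uqcrfs1 of complex III fell by 0.63 on the log2 scale (adjusted p = 0.00143). Atp5g2, another c-ring gene, was the exception and rose from 15.7, 27.3 and 19.2 to 59.9, 56.4 and 75.5 CPM (1.63 ± 0.23, adjusted p = 0.000137; 0.85 in 5xFAD), with 35% of its windows shared.

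Ribosomal proteins divided in the same way. Rps4x and Rpl3 fell by 0.65 and 0.60 on the log2 scale (adjusted p = 0.000142 and 0.000599), Rpl3 from 437, 507 and 474 to 284, 292 and 362 CPM. Rps23 and Rpl12 rose by 0.63 and 0.57 (adjusted p = 0.00135 and 0.00482), and by 0.70 and 0.90 in 5xFAD. All 4 share 20 to 44.5% of their windows with other genes, mostly pseudogenes of the kind that ribosomal proteins have in number, so counts between copies are uncertain. 

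Glycolysis, the main source of ATP and lactate in photoreceptors, had 5 lower and 3 higher of 23. Of all tested genes 4.49% were lower and 6.01% higher. The median of the glycolysis list was -0.17. Its lower count was 3 without 1-month replicate 2 or 6-month replicate 1 or 2 and 8 without 6-month replicate 3. With the length and GC trend removed it had 6 lower and 3 higher. Pkm, the pyruvate kinase, went from 2649, 3193 and 3099 to 2060, 2180 and 2382 CPM (-0.43 ± 0.09, adjusted p = 0.00328), and Pgk1 and Pgam1 fell by 0.56 and 0.53 on the log2 scale (adjusted p = 0.000579 and 0.000399). Pfkp, the phosphofructokinase isoform, rose from 850, 717 and 882 to 1245, 1220 and 1034 CPM (0.51 ± 0.09, adjusted p = 0.000942). Gapdh, often used as a reference gene, was higher by 0.36 ± 0.10 (adjusted p = 0.0166), from 2038, 2365 and 2254 to 2694, 2764 and 3101 CPM. Pgk1, Pgam1, Pkm and Gapdh share 23.1 to 57.6% of their windows.

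Of 13 protein genes of the mitochondrial genome 3 were higher and none lower, beside 6.01% and 4.49% of all tested genes. The level of mt-Co3 listed here went from 582, 765 and 586 to 6112, 6213 and 7417 CPM (3.35 ± 0.24, adjusted p = 6.32e-05; 1.05 in 5xFAD). All of its windows occur in another annotated gene (100%), so this is a change in counts that copies can share, and the mitochondrial share of all counts changed far less, from 4.23 to 5.85% at 1 month to 5.69 to 6.70% at 6 months.

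Splicing factor genes numbered 13 higher and 3 lower of 61, beside 6.01% and 4.49% of all tested genes, with a median of 0.03. With the trend removed they were 10 higher and 11 lower. The higher count was 8 without 1-month replicate 2 or 6-month replicate 2, and the lower count 2 without 1-month replicate 3, 1 without 1-month replicate 1 or 2 or 6-month replicate 3 and 0 without 6-month replicate 1 or 2. Sfpq, a nuclear RNA-binding protein of long neuronal transcripts, went from 242, 209 and 226 to 374, 384 and 317 CPM (0.67 ± 0.10, adjusted p = 0.000163). Celf2 and Tardbp, 2 further regulators of splicing, rose by 0.51 and 0.47 (adjusted p = 0.00234 and 0.00158). Bbs7, of the BBSome that sorts cilium cargo, rose from 142, 138 and 161 to 226, 231 and 233 CPM (0.65 ± 0.11, adjusted p = 0.000446), and Sc5d, of cholesterol synthesis, rose by 0.70 (adjusted p = 0.00219), while their lists had 2 higher and 3 lower of 39 and 1 higher and 2 lower of 25.

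**Figure D4:**
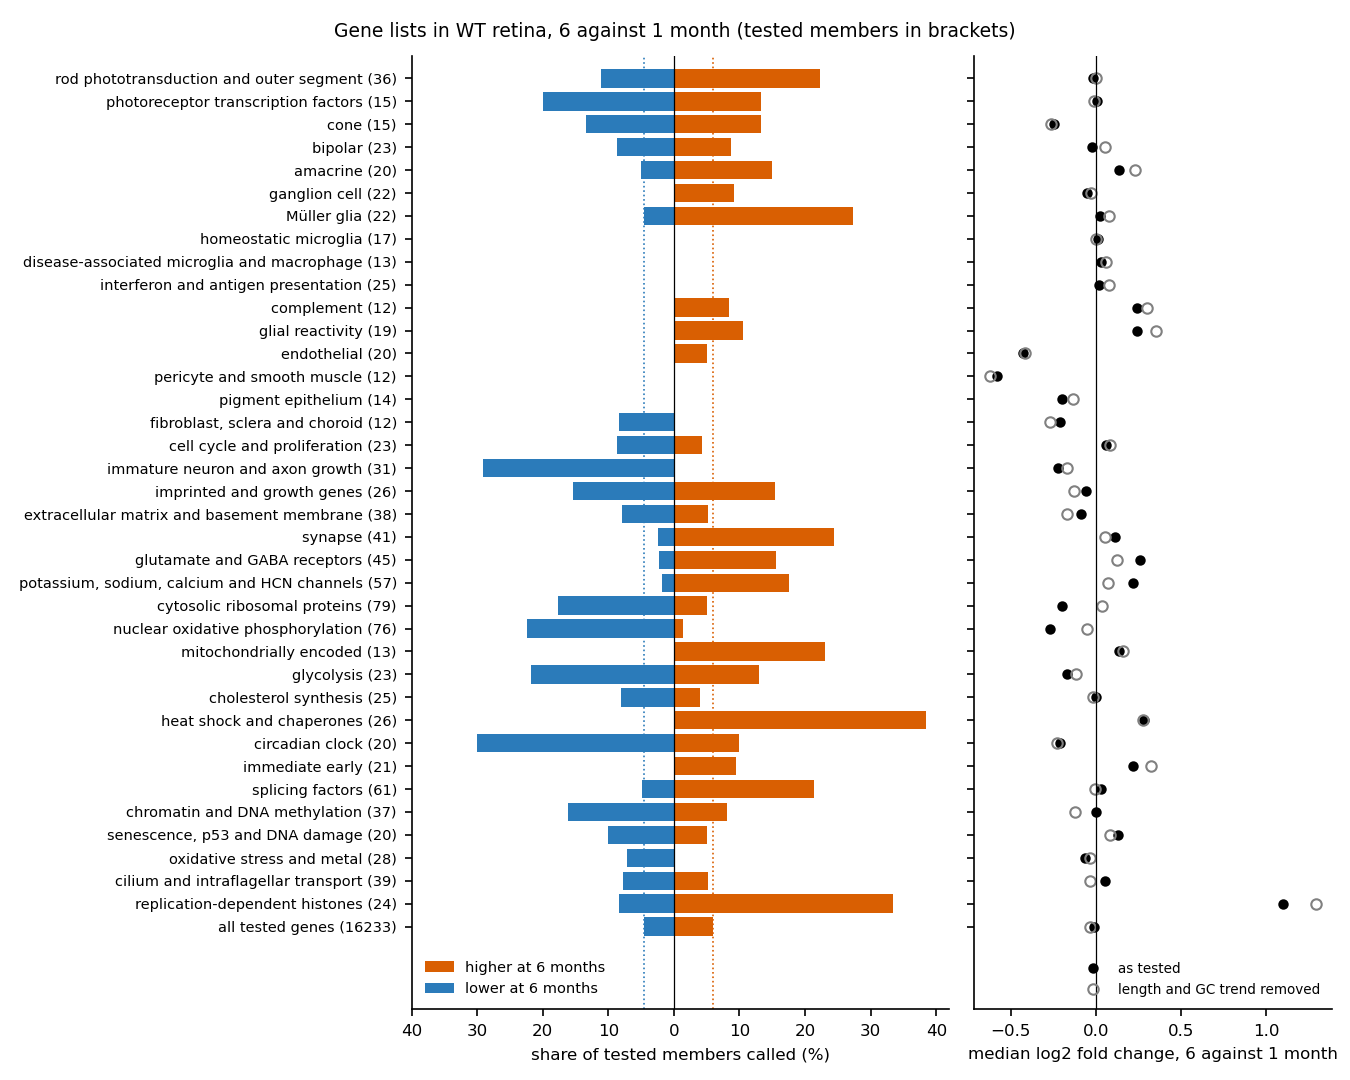
Left, share of tested members of each gene list called higher (orange) or lower (blue) at 6 months in WT retina, with dotted lines at the shares over all tested genes; right, the median log2 fold change of each list as tested (filled) and after removal of the length and GC trend (open). Heat shock and chaperone genes had 10 of 26 higher and none lower, while ribosomal protein genes had a median of -0.20 as tested and 0.04 with the trend removed.

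The genes with the largest falls, apart from the globins, were of mixed kinds. Fabp4, a fatty acid carrier of adipocytes and vessels, went from 23.8, 18.1 and 19.3 to 9.02, 6.67 and 8.43 CPM (-1.35 ± 0.20, adjusted p = 0.000176). Kif4, a mitotic chromokinesin, went from 15.7, 15 and 11.6 to 5.11, 6.46 and 4.96 CPM (-1.35 ± 0.29, adjusted p = 0.00445). Both moved the other way in 5xFAD (1.41 and 1.91).

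Apobec2, a muscle deaminase relative, changed by -2.45 (adjusted p = 0.00242) and Gpr35, a receptor for tryptophan products, by -2.03 (adjusted p = 0.006). Bc1, a short neuronal RNA without a protein product, went from 62.4, 100 and 106 to 8.88, 15 and 17.3 CPM (-2.70 ± 0.33, adjusted p = 0.00113; -1.04 in 5xFAD). Large changes often involved genes with near-identical copies: of 104 genes called with a change of at least 4-fold, 55 share over 50% of their windows with another gene, against 5.90% of all tested genes. Srp54b is one, with 88.3% of its windows shared, and was listed at 73.9, 74.9 and 64.6 CPM and then at 15.1, 13.9 and 7.84. Lrch4 is another (71.8% shared), and rose from 3.69, 3.05 and 4.53 to 26.9, 21.9 and 21.1 CPM (2.63 ± 0.45, adjusted p = 0.00278).

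Genes known to vary between common mouse strains were read as a check of the background. Crb1, a polarity protein of photoreceptors and Müller glia, was lower at 6 months (-0.75 ± 0.16, adjusted p = 0.00753), from 435, 327 and 331 to 197, 187 and 268 CPM, but not without 6-month replicate 1 (0.0598). Pde6b, Entpd4, Wdfy1 and Nnt did not pass. Among the Y-linked genes Kdm5d was higher (0.46, adjusted p = 0.0128, but 0.0908 without 6-month replicate 2), and Ddx3y, Eif2s3y and Uty did not pass.

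At the level of transcripts, 415 of 45326 tested (0.916%) differed between the ages, 250 higher (0.552%) and 165 lower (0.364%). They belong to 384 genes, and for 248 of the transcripts the gene itself was called. Without 1-month replicate 2 there were 102 calls, without 6-month replicate 1 there were 85 and without 6-month replicate 2 there were 71, and 60 transcripts were called in each fit with 1 library left out. Estimated counts of transcripts depend on how reads common to several isoforms are divided, so an isoform listed at 0 can come from a gene with many reads.

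For 10 genes the calls included 1 transcript higher and another lower, and Dido1 and Fam168a show the kind. Dido1-206, a long isoform of this chromatin gene, was listed at 0 in all 1-month libraries and at 17.7, 22.5 and 11.8 CPM at 6 months (adjusted p = 0.00547), while Dido1-201 went from 4.85, 6.02 and 7.44 CPM to 0 in all 3 (adjusted p = 0.00884). Fam168a-202 went from 71.2, 65.2 and 65.3 to 175, 183 and 152 CPM (1.34 ± 0.10, adjusted p = 0.000597). Its partner Fam168a-201 went from 121, 114 and 157 to 28.3, 42.1 and 58.2 CPM (-1.61 ± 0.29, adjusted p = 0.0374), but without passing when 1-month replicate 1 (0.0705), 2 (0.0965) or 3 (0.0911) or 6-month replicate 1 (0.137) or 2 (0.192) was left out. The Fam168a gene as a whole changed by 0.08 (adjusted p = 0.671).

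Ppia-202, an isoform of cyclophilin A, rose from 76.5, 64.6 and 120 to 275, 248 and 285 CPM (1.63 ± 0.20, adjusted p = 0.00801), and in 5xFAD from 51.6, 48.8 and 45.1 to 129, 118 and 104 CPM. Several isoforms were at 0 in 1 age. Of the 24 transcripts singled out by size or by opposite calls, 7 were listed at 0 in every WT library at 1 month and every 5xFAD library at 6 months and above 0 in the other 6 libraries, and 2 showed the reverse. Arhgap35-202 and Arid1a-201 were listed at 0 in the 3 WT libraries at 1 month and at 65.9, 77.6 and 22.8 and at 59.8, 44.7 and 26.1 CPM at 6 months. In 5xFAD both isoforms were at 63.7 CPM or more in each 1-month library and at 0 in each 6-month library. Acin1-219 was listed at 90.3, 125 and 75.7 CPM in WT at 1 month and at 0 in the other 9 libraries.

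**Figure D5:**
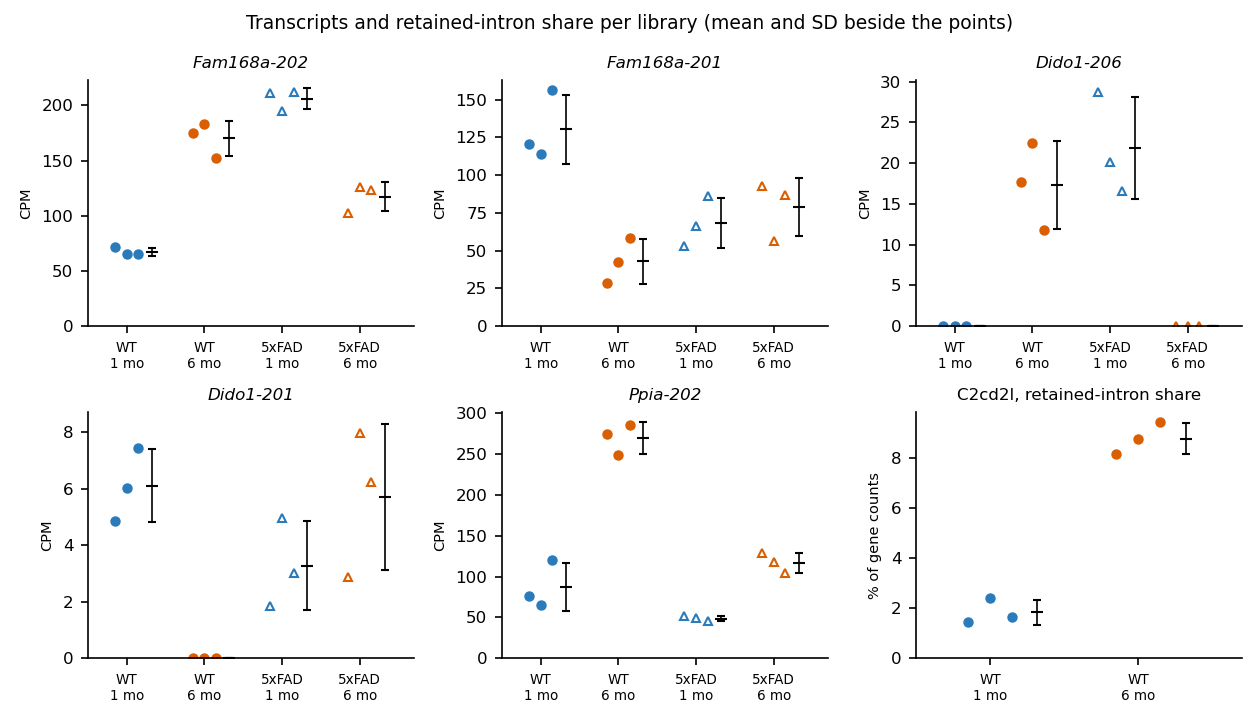
CPM per library for 5 transcripts, and the share of C2cd2l counts on its retained-intron transcripts (circles WT, open triangles 5xFAD, blue 1 month, orange 6 months; mean and SD beside the points). Dido1-206 was at 0 in WT at 1 month and in 5xFAD at 6 months, and the C2cd2l share lay between 1.43 and 2.41% at 1 month and between 8.13 and 9.41% at 6 months.

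Retained-intron transcripts, which keep an intron in a polyadenylated RNA and are a subject of the series, took 6.38% ± 0.205 of counts (SD, n = 3) at 1 month and 6.35% ± 0.482 at 6 months. That difference is within the spread (exact permutation test, two-sided, p = 1.0, with 0.1 the smallest p that 3 against 3 allows). Transcripts annotated for nonsense-mediated decay took 3.14% ± 0.149 and 2.71% ± 0.0103 (exact permutation p = 0.1, the smallest possible). In 5xFAD this share moved the other way. It lay between 2.682 and 2.755% at 1 month and between 3.009 and 3.191% at 6 months. The fall in WT therefore did not follow age across the genotypes, and its cause was not tested.

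Per gene, the retained-intron share could be tested in 4772 genes, and 21 (0.44%) were called. C2cd2l (chr9:44309237-44320285), a lipid transfer protein at contacts of the ER with the plasma membrane, had shares of 1.43, 2.41 and 1.64% at 1 month and 8.13, 8.75 and 9.41% at 6 months, on 69 to 129 and 545 to 750 retained-intron counts. The log2 odds ratio was 2.40 ± 0.24 (adjusted p = 0.00455), the ages did not overlap, and the call held with each library left out. Sptbn1, a spectrin, went from 22.3% ± 7.50 to 4.23% ± 1.29 (SD, n = 3; edgeR adjusted p = 0.0115). It lost the call without 6-month replicate 1 (0.0749) or 2 (0.0948). The number of calls ran from 1 without 6-month replicate 2 to 60 without 6-month replicate 3, and leaving out 1-month replicate 1, 2 or 3 left 8, 3 and 9 and 6-month replicate 1 left 2.

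The WT and 5xFAD changes were compared directly through the interaction of genotype and age, and 4054 of 16233 genes (25%) had a different age change. For several lists the calls in 5xFAD went the other way as tested. In 5xFAD retina 77 of 79 ribosomal protein and 59 of 76 oxidative phosphorylation genes were higher at 6 months and none lower. Of 41 synaptic, 45 receptor and 57 channel genes 17, 19 and 30 were lower, with 1, 1 and 3 higher. Of all tested genes 10.8% were higher and 12.4% lower there. With the length and GC trend removed the WT ribosomal protein calls were mostly higher too (16 higher, 7 lower). Those of oxidative phosphorylation in WT were then 6 higher and 10 lower. The 5xFAD list calls were counted only as tested. Among single genes that went the other way, Ndufa4 went from 155, 155 and 145 to 225, 203 and 222 CPM in 5xFAD (0.51). Kcnj10 went from 59.1, 77.4 and 77.4 to 43.5, 38.2 and 53.8 CPM there (-0.66). The mean transcript length of the 5xFAD libraries was 4195 to 4227 nt at 1 month and 3632 to 3730 nt at 6 months, and their pseudogene share 1.57 to 1.63% and 2.64 to 2.75%, so both measures moved in the opposite sense to those of WT. With each library's length and GC trend removed, 2976 of 16205 genes had a different age change, against 4054 as tested. The part of the pseudogene share was not tested. The mouse App level was 317 to 359 CPM in 5xFAD at 1 month and 279 to 289 CPM at 6 months, against 233 to 322 and 302 to 318 CPM in WT, and the human transgenes are not counted separately in these tables, so the 5xFAD labels were not checked by them.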

How the data were processed

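Whole-retina RNA of 6 WT and 6 5xFAD libraries was measured as polyadenylated RNA. The authors deposited expected counts per gene and per transcript, estimated before deposit and not normalised; RSEM 1.3.3, STAR 2.7.1a, Trim Galore 0.6.6 and DESeq2 1.32.0 are listed, with no order, in the submitters' processing notes, beside the build GRCm38.p6. Identifiers were matched to GENCODE M21 on GRCm38, which gave coordinates, lengths and transcript classes for 55227 of 55487 genes.

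Expected counts were rounded and fitted with edgeR 4.0.16 (R 4.3.3, limma 3.58.1; quasi-likelihood, robust, TMM, filterByExpr by group) over all 12 libraries, 3 in each of 4 groups, which left 8 residual degrees of freedom. Calls were made where the p adjusted by Benjamini-Hochberg was below 0.05. SE is the absolute log2 change over the square root of F. Totals of 10.9 to 19.6 M counts per library leave counting error below the spread of replicates, whose chi-square per degree of freedom was 4.05 to 15.2 in WT. The retained-intron share was tested in edgeR on paired columns with a mean of at least 10 counts each, and the overall share by an exact permutation test. Steps were tested on simulated data. Promoter sequences are RefSeq's.

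Named genes were, among calls with a mean of at least 1 CPM, no overlap of ages and a call in each fit without 1 library and after removal of the length and GC trend (splines with 4 degrees of freedom), the 12 largest in each direction, and up to 4 members per list with the smallest p; not all are described, and some results are not reported here. Genes named beyond this were chosen after values were seen: Sgk1, Isyna1, Glb1l3, Hdc, Folh1, Hif3a, Lima1, Trim17, Serinc5, Smpd1, Doc2b, Mir124a-1hg, Guca1a, Rgs9, Aqp4, Glul, Hspa5, Calr, Uqcrfs1, Rpl12, Gapdh, Bhlhe41, Ciart and the histone list. The libraries, lists and tests were chosen with earlier results of these data known. Alternatives were other scalings, filters and tools (DESeq2 1.42.0), the 6 WT libraries alone, a replicate block, the trend removed, each library left out and, added after the data were seen, genes with over 20% shared windows left out. Figures used Python 3.11.15 and matplotlib 3.10.9.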

Additional observations from a re-analysis of the deposited data

Results flagged for a closer look

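The change from 1 to 6 months differed between the genotypes, by edgeR's test of the interaction at a Benjamini-Hochberg adjusted p below 0.05, for 75 of the genes named in the text. The values are the log2 change in 5xFAD minus that in WT, so a negative value is a gene whose change with age was lower in 5xFAD. Over all tested genes 25% met this test. For photoreceptor genes the difference was -0.95 in Gucy2e, -1.82 in Gucy2f, 0.59 in Guca1a, -0.60 in Pde6a, -1.79 in Rgs9, 0.55 in Rorb, 0.42 in Nrl, -0.68 in Nr2e3, 1.03 in Opn1mw and 0.74 in Gnat2. For genes of inner neurons, synapses, receptors and channels it was 0.52 in Isl1, -1.11 in Tfap2b, -1.25 in Prox1, -1.23 in Shank1, -0.97 in Homer1, -1.40 in Nrxn3, -1.58 in Bsn, -3.40 in Grin2b, -1.26 in Gria2, -4.34 in Kcnh5, -2.48 in Kcna1, -2.03 in Kcna2 and -1.33 in Kcnma1. For glial and vessel genes it was -1.58 in Kcnj10, -0.91 in Aqp4, -0.55 in Acsl3, -0.76 in Abca8a, 0.71 in Crym, -1.06 in Cp and 2.75 in Fabp4. For genes of growth, matrix and chromatin it was 0.89 in Stmn4, 1.35 in Tmsb4x, 0.99 in Hmgb3, 0.89 in Ndn, -1.23 in Igf1r, -1.25 in Ube3a, 0.55 in Agrn, 1.19 in Col6a1, -1.13 in Ccnd1, -1.07 in Hist1h2be, -3.50 in Hist2h4, -0.76 in Kmt2a and 3.26 in Kif4. For chaperone and clock genes it was -0.81 in Hspa1a, -0.59 in Hspa8, -0.66 in Hsph1, -0.70 in Hspa5, -0.71 in Hsp90b1, -0.57 in Calr, 0.40 in Tef and 1.25 in Ciart. For genes of energy metabolism and the ribosome it was 1.28 in Ndufa4, 1.36 in Atp5g3, 1.11 in Uqcrfs1, 1.43 in Rps4x, 1.10 in Rpl3, 0.87 in Pgk1, 0.80 in Pgam1, 0.44 in Pkm, -0.90 in Pfkp and -2.30 in mt-Co3. For RNA-binding and other genes it was -1.23 in Sfpq, -1.32 in Celf2, -0.79 in Tardbp, -2.18 in Mir124a-1hg, 1.65 in Bc1, -0.50 in Bbs7, -1.31 in Sc5d, 2.74 in Srp54b, -3.05 in Lrch4, 1.94 in Apobec2, 3.18 in Gpr35, 0.94 in Crb1, -0.71 in Jun and -0.77 in Kdm5d.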

How the results depend on the processing

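No named gene changed direction under the alternatives run, while the ribosomal protein list turned from mostly lower to mostly higher calls after removal of the length and GC trend. A 2-fold minimum left 282 genes, 171 higher and 111 lower, and removal of the length and GC trend gave 1144 lower. With 1 WT library left out the gene count ran from 780 to 1855 (higher 505 to 1104, lower 246 to 751), the transcript count from 71 to 579 and the count of retained-intron shares from 1 to 60. Fitting only the 6 WT samples gave 222 transcripts and, for the shares, 0 calls in edgeR (692 at an unadjusted p below 0.05). A mean of at least 50 counts gave 130 shares and limma on the logit 3. The overall retained-intron difference ran from -0.241 to 0.233 percentage points with 1 library left out.

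Replicate numbers did not pair the samples: same-numbered libraries correlated at 0.062, -0.050 and -0.020. With the replicate block there were 1457 gene calls (856 higher, 601 lower) and 110 transcript calls. The 3 libraries a group and the shallower 1-month libraries limit what low genes and single isoforms can show; the cause of the moved counts was not tested.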

Other observations

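Some gene groups outside the comparisons above also held calls, beside 6.01% higher and 4.49% lower of all tested genes. Of 37 chromatin and DNA methylation genes 3 were higher and 6 lower at 6 months (1 and 10 after removal of the length and GC trend). Without 6-month replicate 2 there were 1 and 1, without 6-month replicate 3 there were 6 and 6, and without any other single library the lower count was 3. Kmt2a, a histone methyltransferase, was at 587, 511 and 521 CPM at 1 month and at 955, 977 and 606 at 6 months (log2 change 0.65 ± 0.13, adjusted p = 0.00297 in edgeR), with 6-month replicate 3 close to the younger libraries. Of 21 immediate early genes 2 were higher. Jun, an AP-1 subunit, went from 25.3, 21.4 and 32 to 40.4, 37.7 and 42.2 CPM (0.61 ± 0.17, adjusted p = 0.0194), and did not pass without 1-month replicate 2 (0.117) or 6-month replicate 1 (0.052).

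Among annotated classes without a known protein, 31 of 451 genes still to be verified experimentally were higher and 6 lower (8.20% called). Of 58 sense-intronic genes 6 were higher and none lower (10.3% called). The 446 long intergenic RNA genes had 17 higher and 15 lower (7.17% called). The 396 antisense genes had 8 and 8 (4.04% called), where an unstranded preparation cannot tell a gene from its antisense partner. None of these shares exceeded the 10.5% called over all tested genes.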
